A study of Mus musculus with 5 samples.

Results

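Accessible chromatin of SOX13hi γδ thymocytes was set against that of double-positive (DP) thymocytes, with 1 ATAC-seq library of each. ATAC-seq uses a transposase that cuts and tags open DNA, so that a peak marks a stretch of accessible chromatin. The members were all peaks of both lists on the 19 autosomes, 53009 of SOX13hi and 110707 of DP, of 332881 peaks on all chromosomes in the 5 libraries of the series. The SOX13hi cells were CD24+ γδ T cells with high CFP, sorted from the thymus of C57BL/6 animals of the genotype TCRbeta KO.Sox13 ECFP KI/+, in which 1 Sox13 allele carries the CFP reporter. The DP cells came from wild-type C57BL/6 thymocytes. Per the labels, 40000 cells were sorted for each γδ library, and 40000 is the number recorded for DP too. Neither age, sex nor the number of animals behind a library is given in the sources used here. Cell type and genotype changed together, so that their parts in any difference cannot be told apart. The other 3 libraries, SOX13lo and the SOX13hi and SOX13lo fractions of Sox13 transgenic animals (genotype TCRbeta KO.Sox13tg+.Sox13 ECFP KI/+), were used only to look up whether a site was also seen in other γδ cells. They carry the TCRbeta knockout too. Lines of the SOX13lo list carry the peak name of SOX13hi, and the DP and transgenic SOX13hi libraries carry one and the same index in the labels. The labels were followed, and whether either bears on a value was not tested.

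DP thymocytes carry both CD4 and CD8, have rearranged Tcrb, and rearrange Tcra with the RAG recombinase before selection as αβ T cells. γδ T cells take another path, in which Tcrg and Tcrd are rearranged and the CD4 and CD8 coreceptors are mostly not made. SOX13 is an HMG-box factor of the SOX family that marks a subset of immature γδ thymocytes and is required for normal development of IL-17-producing γδ T cells. Loci below are given by their mm9 position. Gene names beside them are background knowledge of where these genes lie, since no mm9 annotation was used here, and no peak was assigned to an exon, intron or promoter.

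The DP list was longer and covered 11.5 Mb, against 5.11 Mb for SOX13hi. Median peak width was 49 bp in SOX13hi and 53 bp in DP, and 45.4% and 42.1% of the peaks were 28 to 30 bp wide. Read depth is unknown. Since deeper sequencing alone can lengthen a list, the main comparisons are also given with the 53009 highest-scoring peaks of each list. No source says what the peak score counts, and it served only to rank peaks within a list.

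By an overlap of at least 1 bp, most SOX13hi peaks also lay in open chromatin of DP cells. Of the SOX13hi peaks, 63.0% (95% interval 62.6 to 63.4, exact Clopper-Pearson) met a DP peak, and 25.9% (25.6 to 26.1) of the DP peaks met a SOX13hi peak. Where each peak had to cover 50% of the other, 13.2% and 6.32% met, and the word most no longer held. With equal numbers of highest-scoring peaks the shares were 56.6% (56.2 to 57.0) of SOX13hi and 47.0% (46.5 to 47.4) of DP. These intervals cover counting error only, as do all intervals below, and no comparison has a replicate. The strongest sites were largely common. In the highest decile of each list by score, 88.1% of SOX13hi peaks and 87.3% of DP peaks met the other list. The shares then parted. In the third decile 76.7% of SOX13hi peaks and 38.7% of DP peaks were shared, and in the lowest decile 43.2% and 3.51%. The deciles are of lists of unequal length, and the lower DP deciles lie below the score of 12 at which the DP list of equal number ends. The gap between the lower deciles is therefore not a difference at matched list length. Median width also fell from the highest to the lowest decile, from 233 to 28 bp in SOX13hi and from 139 to 28 bp in DP. Wide peaks reach an overlap of 1 bp more easily.

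**Figure D1:**
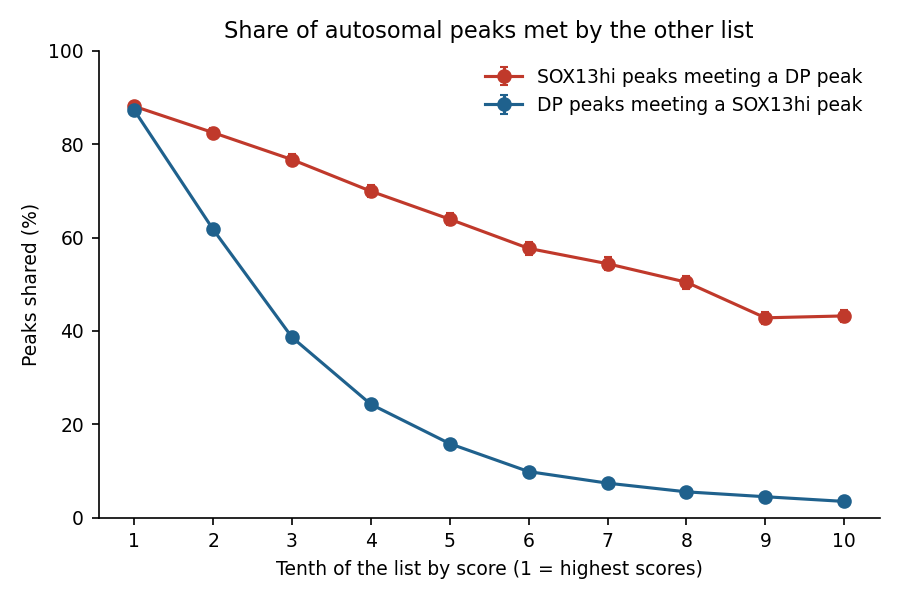
Share of autosomal peaks (%, vertical axis) met by at least 1 peak of the other list, for each decile of a list by score (horizontal axis, 1 is the highest), for SOX13hi (red) and DP (blue); bars are exact 95% intervals. Both lists start near 88% and part below the first decile, down to 43.2% for SOX13hi and 3.51% for DP.

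When both lists were limited to the same number of top peaks, the common part stayed between 54.0% and 65.0% of the SOX13hi peaks. Of the top 1000 SOX13hi peaks, 54.0% (50.9 to 57.1) met one of the top 1000 DP peaks, but 91.4% (89.5 to 93.1) met a DP peak of any score. Of the top 10000 these shares were 65.0% and 85.5%. The top 1000 DP peaks behaved alike, with 53.8% among the top 1000 of SOX13hi and 94.2% in the whole SOX13hi list. A strong site of one cell type was therefore usually open in the other, though often at another rank.

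Peaks without a counterpart were weak and narrow in both lists. An overlap of 1 bp is easier to reach for a wide peak, and how far this rule made the difference in width was not tested. The 19627 SOX13hi peaks that met no DP peak had a median score of 9 and a median width of 29 bp, against 16 and 80 bp for the 33382 that did. In DP the 82052 unmet peaks had a median score of 8 and a width of 29 bp, and the 28655 met peaks a score of 50 and a width of 115 bp. Many unmet SOX13hi peaks were near misses. For 53.6% of them a DP peak lay less than 200 bp away whereas 5578, or 10.5% of the whole list, had none within 1 kb. Unmet DP peaks lay farther out, with 20.7% less than 200 bp from a SOX13hi peak and 41625, or 37.6% of the whole list, with none within 1 kb. The gaps were taken on the whole lists, and the DP list is the longer one. They are therefore not compared at matched list length.

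The stronger SOX13hi sites missing from DP recurred in other γδ libraries. In the 25% of the SOX13hi list with the highest scores, 702 peaks (5.30% of that top 25%) had no DP peak within 1 kb. Of these, 634 (90.3%, 87.9 to 92.4) were met by a peak of transgenic SOX13hi, 493 (70.2%, 66.7 to 73.6) by SOX13lo and 213 (30.3%, 27.0 to 33.9) by transgenic SOX13lo, the shortest list. At least 1 of the 3 libraries held 670 of the 702 (95.4%, 93.6 to 96.9), and 32 were seen in SOX13hi alone. Of the 11157 SOX13hi peaks in the top 25% that met DP, 99.6% were in at least 1 other γδ library. Transgenic SOX13hi held more of the 702 sites than SOX13lo did, although its list was the shorter one (62159 against 65744 peaks).

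Many of the stronger DP sites missing from SOX13hi were missing from every γδ library. Their share cannot be set against that of the SOX13hi sites, because there was no other DP library to look in. The top 25% of DP is also the longer list. In the top 25% of DP, 4764 peaks (17.2%) had no SOX13hi peak within 1 kb, of which 2426 (50.9%, 49.5 to 52.4) met no peak of any γδ library. SOX13lo held 1608 of them (33.8%), transgenic SOX13hi 1483 (31.1%) and transgenic SOX13lo 577 (12.1%). The remaining 2338 (49.1%) of the 4764 were present in at least 1 γδ list other than SOX13hi. Of the 18926 DP peaks in the top 25% that met SOX13hi, 97.2% were in at least 1 further γδ library.

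**Figure D2:**
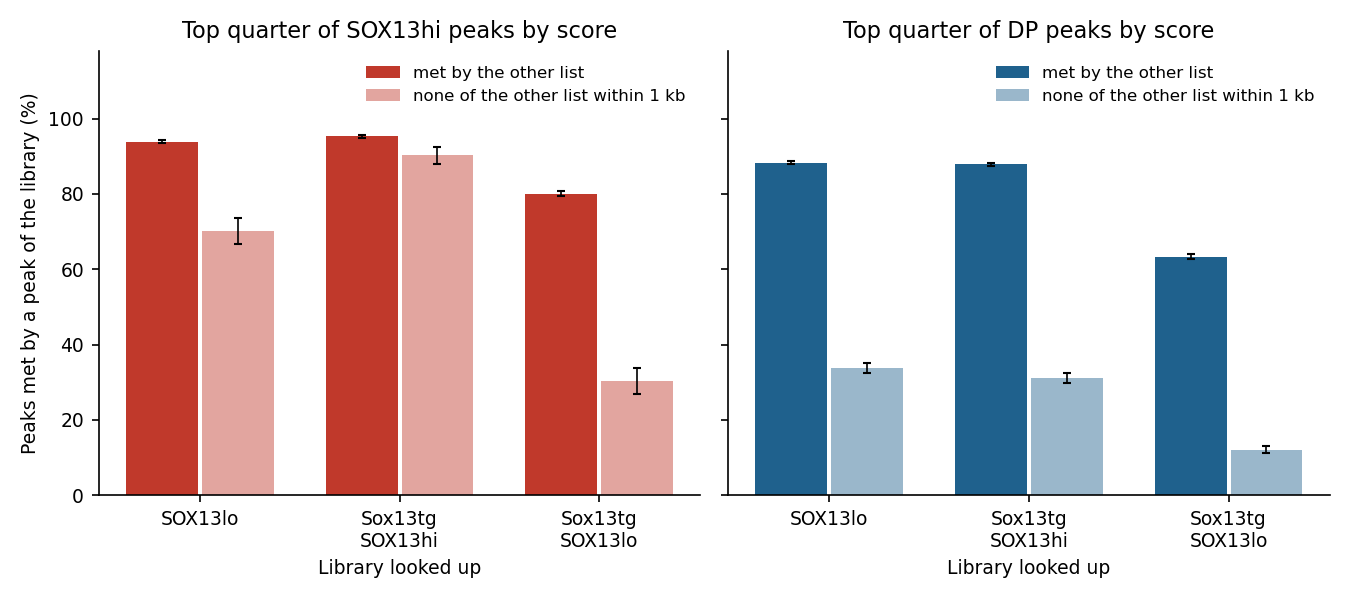
Share (%, vertical axis) of the top 25% of peaks of SOX13hi (left) and DP (right) met by a peak of each library that was only looked up (horizontal axis), for peaks met by the other list of the pair (dark) and peaks with none of it within 1 kb (light); bars are exact 95% intervals. SOX13hi sites far from any DP peak were held by transgenic SOX13hi at 90.3%, and DP sites far from any SOX13hi peak by no γδ library at more than 33.8%. The libraries looked up are all γδ, so the panels are not like for like.

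The genome was then read in 100 kb windows of merged regions, after scaling DP to the SOX13hi total. Of 12236 windows, 419 (3.42%) held at least 5 more regions in SOX13hi and 507 (4.14%) at least 5 more in DP. With equal numbers of peaks these were 388 (3.44%) and 522 (4.63%) of 11280 windows. The 19 windows named below had the largest differences with all peaks or with equal numbers, 9 towards SOX13hi and 10 towards DP. They describe the ends of the range, apart from 4 windows dense in all libraries that were not ranked. Intervals beside their numbers are exact Poisson intervals before scaling. The windows were picked by these same numbers, so whether intervals part or overlap describes a window and is no test of it. Joining peaks within 150 bp lowers many of the numbers, which the intervals do not allow for.

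**Figure D3:**
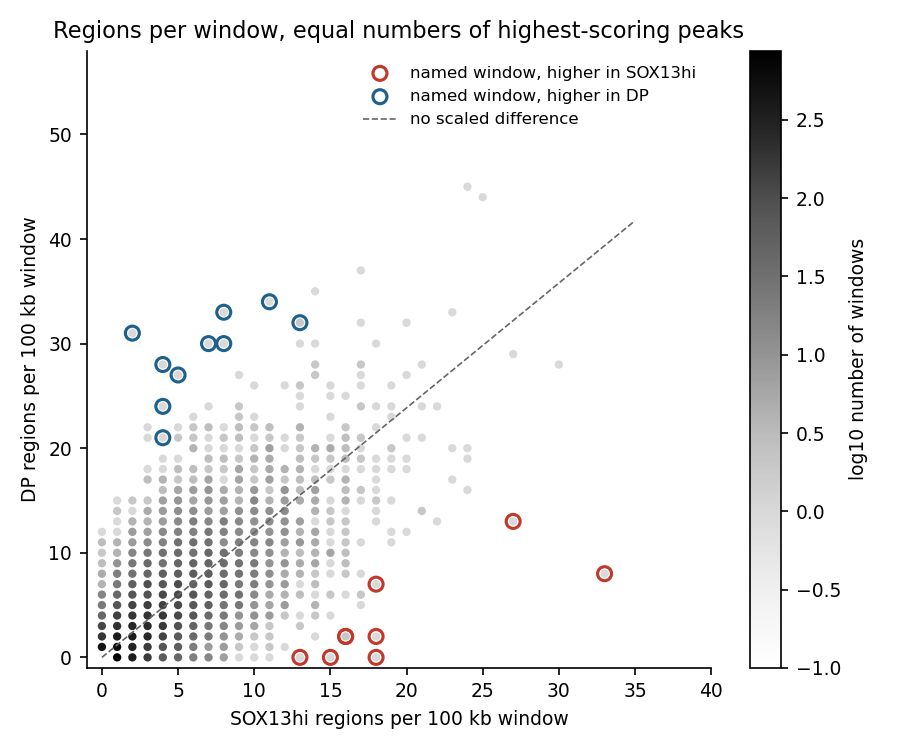
Number of regions per 100 kb window in SOX13hi (horizontal axis) and DP (vertical axis) with equal numbers of highest-scoring peaks; grey points are pairs of numbers, shaded by the log10 number of windows, circles are the named windows, and the dashed line marks no scaled difference. The named windows stand at the edges of the cloud, with the Tcrg window at 33 against 8 regions and the Tcf7 window at 2 against 31.

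The Tcrb locus, whose gene is the one named in the knockout, was read first. A stretch at chr6:41483999-41502693, which as background covers the D, J and C segments of Tcrb, held 52 DP peaks over 18.7 kb and 0 peaks in SOX13hi, SOX13lo and both transgenic libraries. It was the second longest series of DP peaks on an autosome that no γδ peak interrupted. With equal numbers 33 DP peaks remained and SOX13hi had 0. Its flanks were open in γδ cells. In the 20 kb above it SOX13hi had 9 peaks, SOX13lo 12, transgenic SOX13hi 12, transgenic SOX13lo 6 and DP 19, and the strongest one scored above 99.6% or more of each list. In the 20 kb below it the direction was the opposite, with 12, 14, 12 and 6 peaks in the γδ libraries, in the same order, and 3 in DP. The labels do not give the extent of the knockout allele, so missing DNA and closed chromatin cannot be told apart in this stretch. The 100 kb window at chr6:41400001-41500000 held 11 regions in SOX13hi and 50 in DP, and 11 against 34 with equal numbers.

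The coreceptor genes Cd8a and Cd8b1 on chromosome 6 lay in chromatin that was rich in peaks in DP and nearly empty in γδ cells. The window at chr6:71300001-71400000 held 71 regions in DP (55.5 to 89.6) and 4 in SOX13hi (1.09 to 10.2), as well as 4 in SOX13lo, 4 in transgenic SOX13hi and 1 in transgenic SOX13lo. Its neighbour at chr6:71200001-71300000 held 67 regions in DP (51.9 to 85.1), 4 in SOX13hi (1.09 to 10.2), 6 in SOX13lo, 7 in transgenic SOX13hi and 2 in transgenic SOX13lo. With equal numbers DP had 28 and 24 regions there and SOX13hi 4 and 4. The DP peaks formed an unbroken series. At chr6:71308021-71360039, 56 DP peaks followed each other with no peak of any γδ library, the highest number in such a series with all peaks. With equal numbers 19 of them were left, fewer than the 33 at Tcrb. Within it the cluster at chr6:71319136-71332003 held 27 DP peaks in 12.9 kb, the most of any cluster without a SOX13hi peak when all peaks were used, and 12 with equal numbers. Its strongest peak scored above 97.4% of the DP list. SOX13hi was not bare in these windows. All 4 SOX13hi peaks of the lower window, and 3 of 4 of the upper one, met a DP peak. Those of the upper window lay 89.8 to 91.2 kb above the border between the windows, beyond the cluster. Those of the lower window started at -78.8, -78.5, -27.4 and -8.71 kb from that border.

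Tcf7 encodes TCF1, an HMG-box factor required early in T cell development. Its window at chr11:52000001-52100000 showed the largest difference towards DP with both kinds of list, with 76 regions in DP (59.9 to 95.1) and 2 in SOX13hi (0.242 to 7.22). SOX13lo had 8 regions (3.45 to 15.8), transgenic SOX13hi 11 (5.49 to 19.7) and transgenic SOX13lo 6 (2.20 to 13.1). SOX13hi had the lowest number of the γδ libraries, below transgenic SOX13lo with its shorter list, but its interval overlapped each of theirs. The window was picked for a low SOX13hi number against DP, so a lowest place among γδ libraries that took no part in the choice is not a separate result. With equal numbers DP had 31 and SOX13hi 2. With peaks within 150 bp joined, DP had 38 and SOX13hi 2. The scaled difference was then -14.3, smaller in size than in both Cd8 windows (-16.1 and -16.5) and the window of Rag1 and Rag2 (-16.4). At chr11:52089481-52095770, 30 DP peaks stood within 6.29 kb and none in any γδ library, and 13 DP peaks were left with equal numbers. Just below, in 20 kb, SOX13hi had 3 peaks, SOX13lo 6, transgenic SOX13hi 10, transgenic SOX13lo 6 and DP 20. DP peaks in the series were individually modest, with the highest scoring above 81.5% of the list.

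The recombinase genes Rag1 and Rag2, neighbours on chromosome 2, fell in the window at chr2:101400001-101500000. DP had 68 regions there (52.8 to 86.2) and SOX13hi 8 (3.45 to 15.8). SOX13lo had 12, transgenic SOX13hi 10 and transgenic SOX13lo 4. With equal numbers the window held 33 regions in DP and 8 in SOX13hi, the second largest difference towards DP. The strongest DP peak of the window scored 340, above 98.1% of the list, and met no SOX13hi peak. The cluster at chr2:101485676-101493401 was chosen after its values were seen, among clusters required to hold 0 SOX13hi peaks. It reached the same score and held 21 DP peaks, 2 in SOX13lo, 1 in transgenic SOX13hi and 1 in transgenic SOX13lo. With equal numbers 15 DP peaks were left there.

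**Figure D4:**
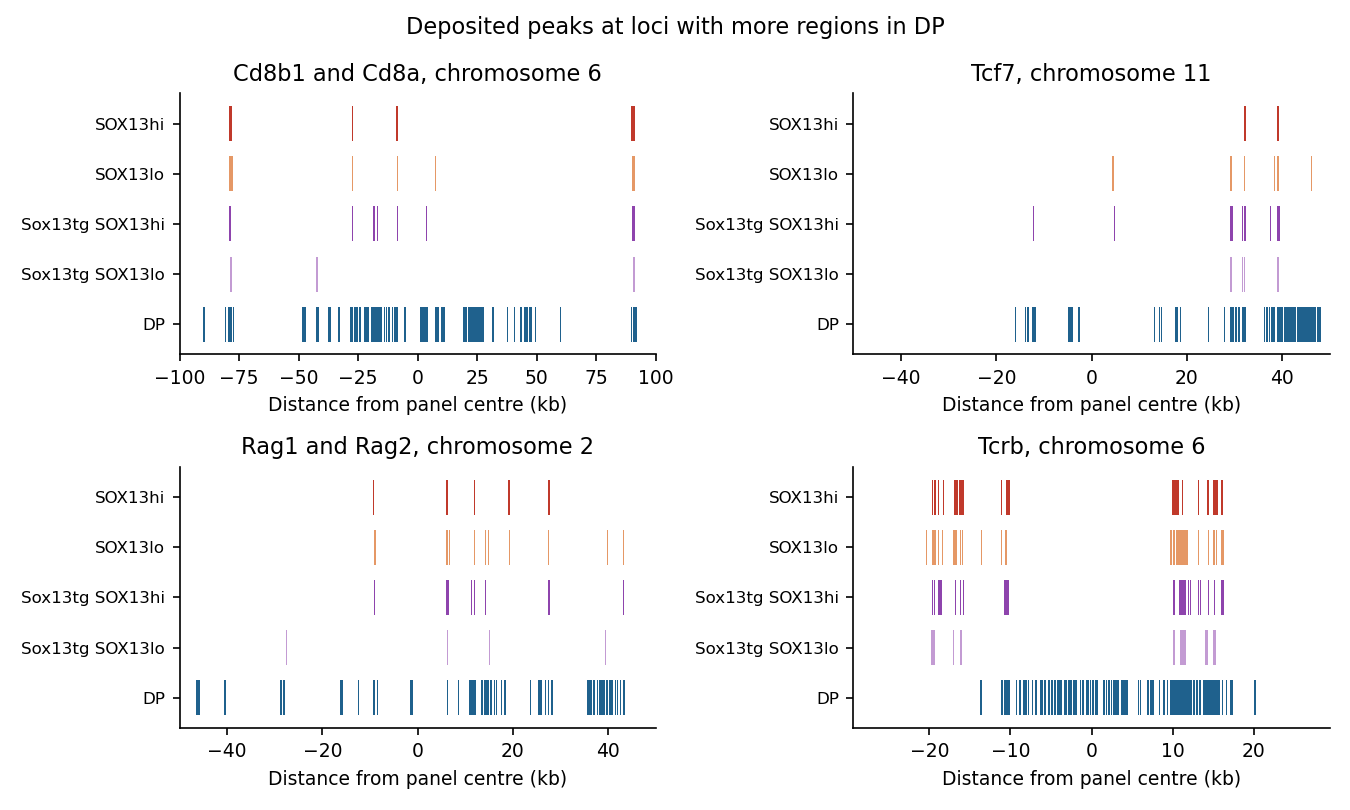
Peaks of the 5 libraries (rows) at 4 loci with more regions in DP, each drawn at its distance from the panel's centre (kb, horizontal axis); panels span the 2 Cd8 windows, the Tcf7 window, the Rag1 and Rag2 window, and the Tcrb stretch with 20 kb on either side, and narrow peaks are widened to be visible. In the Tcrb panel the γδ rows are empty between the flanks, where DP has 52 peaks, and in the Cd8 panel DP has 138 peaks against 4 to 11 in the γδ libraries.

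Other DP-rich windows lay at further genes of lymphocytes and at positions left unnamed. On chromosome 15 the window at chr15:74700001-74800000, in the Ly6 gene cluster of surface proteins, held 84 regions in DP (67.0 to 104) and 8 in SOX13hi (3.45 to 15.8), and 30 against 8 with equal numbers. Transgenic SOX13hi had 18 regions there, and SOX13lo and transgenic SOX13lo 9 each. The window at chr15:97500001-97600000, which holds Endou, an endoribonuclease gene, had 61 regions in DP and 4 in SOX13hi, with 5, 6 and 4 in SOX13lo, transgenic SOX13hi and transgenic SOX13lo. At chr9:32500001-32600000, near Ets1, an ETS-family factor of lymphocytes, DP had 85 regions and SOX13hi 13, and the further γδ libraries 20, 19 and 14 in that order. With equal numbers DP had 32 and SOX13hi 13 there, and 21 against 4 in the Endou window. A window at chr8:123000001-123100000 held 60 regions in DP and 5 in SOX13hi, and 13, 13 and 3 in the others, and 27 against 5 with equal numbers. The last one, at chr1:135900001-136000000, was named by equal numbers alone, with 30 regions in DP and 7 in SOX13hi. Its numbers with all peaks were 52 and 7, and 17, 10 and 10 in the other γδ libraries.

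Long series of DP peaks with no SOX13hi peak between them were a measure added after the data were seen. SOX13hi has 0 peaks in each by definition, so this 0 cannot be set against the numbers of the other γδ libraries. Of the 10 with the most peaks, those at Satb1 and Lef1 are given because these genes are known, a choice made after the values were seen, and others lay at unnamed positions. Among the latter, chr8:130115946-130792622 held 51 DP peaks (19 with equal numbers) and chr12:117041270-117248989 held 41 (16 with equal numbers). At chr17:51874429-51951809, around Satb1, an organiser of thymocyte chromatin, 53 DP peaks followed each other over 77.4 kb. Transgenic SOX13lo had 0 peaks there, SOX13lo 5 and transgenic SOX13hi 4. With equal numbers 10 of the DP peaks were left. At chr3:130729673-130814842, beside Lef1, the relative of Tcf7, DP had 41 peaks, SOX13lo 17, transgenic SOX13hi 4 and transgenic SOX13lo 1. Here 17 DP peaks remained with equal numbers. In all, DP had 1326 such series of 10 or more peaks with all peaks and 97 with equal numbers. SOX13hi had 31 series of 10 or more without a DP peak, and 98 with equal numbers, so the excess of long series in DP did not hold when the lists had the same length.

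In the Tcra/Tcrd locus on chromosome 14, where DP cells rearrange Tcra, a cluster at chr14:54787801-54806183 held 22 DP peaks over 18.4 kb and 0 SOX13hi peaks. SOX13lo had 1 peak there, transgenic SOX13hi 0 and transgenic SOX13lo 2. The DP peaks were weak, the highest above 75.6% of the list, and 7 were left with equal numbers. This cluster was chosen after its values were seen. The clusters named by rule for DP, beside that at Cd8a, were at chr4:59200270-59219274, with 25 DP peaks, 0 in SOX13hi, and 6, 4 and 2 in SOX13lo, transgenic SOX13hi and transgenic SOX13lo, and at chr3:50479831-50499405, with 23 DP peaks and 0 in every γδ library. The latter sits inside the series without a SOX13hi peak that had the most DP peaks, 83 over 585 kb at chr3:50105039-50690168. With equal numbers 33 of these were left, against 34 in the Tcrb series.

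Among the ranked windows, the Tcrg locus on chromosome 13, which encodes the γ chain, showed the largest SOX13hi excess. At chr13:19400001-19500000 SOX13hi had 33 regions (22.7 to 46.3) and DP 16 (9.15 to 26.0), and SOX13lo 39, transgenic SOX13hi 29 and transgenic SOX13lo 7. The SOX13hi and DP intervals overlapped. With equal numbers SOX13hi had 33 (22.7 to 46.3) and DP 8 (3.45 to 15.8), and the intervals were apart. The neighbouring window at chr13:19300001-19400000 held 18 regions in SOX13hi (10.7 to 28.4) and 5 in DP (1.62 to 11.7), and 16, 11 and 4 in SOX13lo, transgenic SOX13hi and transgenic SOX13lo. The SOX13hi and DP intervals overlapped here too. A single DP peak of the 5 in that window met a SOX13hi peak. The locus was not closed in DP. In the upper window 10 of 17 DP peaks met SOX13hi, and the strongest scored above 99.4% of the DP list. Between both windows, at chr13:19392666-19428846, 13 SOX13hi peaks followed each other without a DP peak. SOX13lo had 11 peaks in that stretch, transgenic SOX13hi 1 and transgenic SOX13lo 0, and the SOX13hi peaks were weak, the highest above 50.5% of the list.

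Clusters towards SOX13hi were chosen among those without a DP region, so their 0 in DP is set by the rule. The first was a compact cluster on chromosome 17. At chr17:63229091-63233724, 17 SOX13hi peaks lay within 4.63 kb, with 16 in SOX13lo and 13 in transgenic SOX13hi. Transgenic SOX13lo and DP had 0. The window around it, chr17:63200001-63300000, held 18 regions in SOX13hi (10.7 to 28.4), 19 in SOX13lo, 13 in transgenic SOX13hi and 1 in transgenic SOX13lo. DP had 0 (0 to 3.69). A second one, at chr2:136939945-136943388, held 13 SOX13hi peaks in 3.44 kb, 9 in SOX13lo, 8 in transgenic SOX13hi and 5 in transgenic SOX13lo, where DP had 0. The third, at chr2:79733103-79738659, held 8 peaks in each of SOX13hi and SOX13lo, 2 and 1 in the transgenic libraries and 0 in DP.

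**Figure D5:**
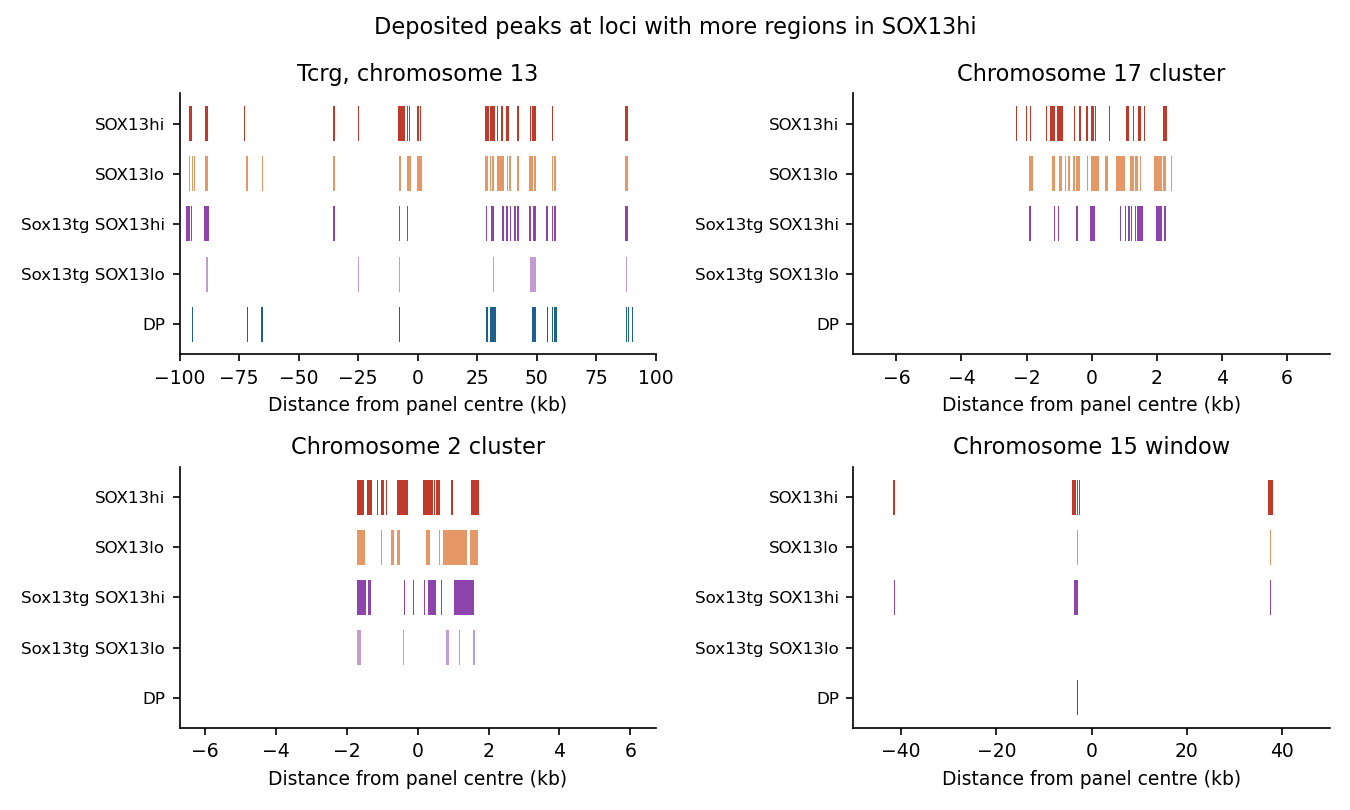
Peaks of the 5 libraries (rows) at 4 loci with more regions in SOX13hi, drawn at the distance from the panel's centre (kb, horizontal axis); panels span the 2 Tcrg windows, the compact clusters on chromosomes 17 and 2 with 5 kb on either side, and the chromosome 15 window, and narrow peaks are widened to be visible. DP has no peak in either cluster panel, as the rule that named the clusters requires. In the Tcrg panel DP has 22 peaks and SOX13hi 56.

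Some SOX13hi-rich windows were shared with SOX13lo and others were not. At chr2:148200001-148300000 SOX13hi had 16 regions and DP 3, with 21 in SOX13lo, 14 in transgenic SOX13hi and 6 in transgenic SOX13lo. At chr5:58100001-58200000 all 11 DP peaks met a SOX13hi peak. Joining peaks within 150 bp left 5 regions in SOX13hi and 1 in DP there, a scaled difference of 4.57, below the 5 used to call. With peaks not joined the numbers were 16 and 5, with 16, 20 and 9 in the others. By contrast, chr15:19700001-19800000 held 15 regions in SOX13hi (8.40 to 24.7), 5 in transgenic SOX13hi, 2 in SOX13lo and 1 in DP (0.0253 to 5.57). Transgenic SOX13lo had 0. The window at chr14:24200001-24300000, named by equal numbers alone, held 13 in SOX13hi, 11 in transgenic SOX13hi, 4 in SOX13lo and 3 in transgenic SOX13lo, against 1 in DP. In these last 2 windows SOX13lo and transgenic SOX13lo were closer to DP than to SOX13hi. Transgenic SOX13hi was closer to DP as well at chr15:19700001-19800000, but not at chr14:24200001-24300000. Both windows were picked for a high SOX13hi and a low DP number, a choice in which the other libraries took no part. Those at chr2:58000001-58100000 (27 against 19) and chr6:127900001-128000000 (18 against 10) were well filled in DP too. With equal numbers they held 27 against 13 and 18 against 7 regions, and their intervals overlapped with both kinds of list. With all peaks the intervals were apart in 4 of the 9 windows towards SOX13hi, and with equal numbers in 7. Since these windows were picked for a large difference, the counts are no support for it. Those of both Tcrg windows and of chr5:58100001-58200000 overlapped with all peaks only.

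Single strong sites were read next. The 8 highest-scoring SOX13hi peaks with no DP peak within 1 kb scored 170 to 246, above 98.2% to 99.3% of the list, and were 41 to 776 bp wide. All 8 were present in SOX13lo and transgenic SOX13hi, and 6 of 8 in transgenic SOX13lo. The first was at chr1:66599353-66599393, with the nearest DP peak 148 kb away, and was missing from transgenic SOX13lo. The second, at chr14:87046461-87046718, and the third, at chr3:141441235-141441952, were held by all 4 γδ libraries, as was a wide site of 776 bp at chr2:106706341-106707116. The remaining ones were at chr4:11648535-11648682, chr2:149109138-149109188, chr2:65986860-65986921 and chr7:96861021-96861726, the last of which was also missing from transgenic SOX13lo.

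The 8 highest-scoring DP peaks with no SOX13hi peak within 1 kb scored 350 to 669, above 98.2% to 99.7% of that list. SOX13lo held none of the 8, transgenic SOX13hi 3 and transgenic SOX13lo 1, and 4 were in no γδ library. Those 4 were at chr14:17006096-17006189, chr1:186234395-186235446, chr3:50246540-50246668 and chr10:6829815-6830009. The widest was the second, with 1052 bp. The sites at chr3:143577777-143577978, chr7:56620133-56620240 and chr10:37345828-37345953 were also in transgenic SOX13hi, and that at chr10:96153335-96154001 in transgenic SOX13lo.

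The other γδ libraries, compared with the same DP library and so not independent of the values above, gave shares of the same order. Of the SOX13lo peaks 60.8% met a DP peak, of transgenic SOX13hi 61.0% and of transgenic SOX13lo 66.4%, against 63.0% for SOX13hi. Of the DP peaks, 32.5% met SOX13lo, 29.7% transgenic SOX13hi, 25.9% SOX13hi and 15.7% transgenic SOX13lo, which is the order of the lengths of the 4 γδ lists.

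Finally, 4 windows with 20 or more regions in all 5 libraries were kept apart. At chr11:3000001-3100000 SOX13hi had 128 regions and DP 125, and at chr9:3000001-3100000 66 and 63. After scaling, these were differences of 78.0 and 40.8 regions towards SOX13hi, larger than at Tcrg. With equal numbers DP had 48 and 50 there, and the scaled differences were 88.8 and 24.1. The other two, at chr6:128700001-128800000 and chr8:87500001-87600000, held 30 against 65 and 24 against 44 regions.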

How the data were processed

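For every library the authors deposited a list of peaks on mm9 (build per the submitters' processing notes), each with a whole-number score of unstated meaning. Aligner, peak caller, threshold and read filters: not given in the sources used here. From the deposited lists, peaks on 19 autosomes were kept. Starts are printed 1-based. Sharing meant an overlap of at least 1 bp. For windows, overlapping peaks of all 5 lists were merged into regions and counted per 100 kb by their centre. For regions absent from one list, only SOX13hi and DP peaks were merged. The scaled difference was the SOX13hi number minus the DP number times the ratio of totals (0.400 with all peaks, 0.838 with equal numbers). Ties in score went to the lower chromosome and start. Clusters joined regions of SOX13hi and DP over gaps of at most 5 kb. A series ended at any peak of the other list.

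Named loci were the 8 windows of largest scaled difference towards SOX13hi and towards DP, with all peaks and with 53009 peaks per list. Added to these were the 8 highest-scoring peaks per list with none of the other within 1 kb, and 3 clusters per list. The clusters were those with the most regions of a list and none of the other. Members, rules and lists were chosen with earlier results of these data known. With 1 library per group no test across replicates exists and no p-value is given. Functions were tested on simulated data. Windows with 20 or more regions in all 5 libraries were left out of the ranking. A GRCm38 gene table gave only the chromosome, neighbours and density of genes. Software was Python 3.11.15, scipy 1.17.1, numpy 2.4.6, matplotlib 3.10.9 and pandas 2.3.3.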

Additional observations from a re-analysis of the deposited data

Results flagged for a closer look

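Peaks outside the autosomes took no part in the comparison. The DP list held 7 mitochondrial peaks and the SOX13hi list 0. On chromosome Y DP held 329 peaks (2.89 per 1000 of its list) and SOX13hi 80 (1.47 per 1000), and 80.0% of the SOX13hi ones met a DP peak. On chromosome X the rates were alike, with 24.9 per 1000 in DP and 24.7 in SOX13hi. The sex of the animals is not given in the sources used here.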

How the results depend on the processing

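No paired analysis was possible because each group holds 1 library, and for the same reason no replicate could be left out. With equal numbers of highest scores, 56.6% of SOX13hi and 47.0% of DP peaks were shared, 28114 DP regions were absent from SOX13hi (82052 with all peaks), and another γδ library held 64.4% of the SOX13hi regions absent from DP (63.7% with all peaks) and 45.3% of the DP regions absent from SOX13hi (24.5%). With the upper 50% of each list these values were 72.1% and 31.4% shared, 7384 SOX13hi (19627 with all peaks) and 37949 DP regions, 75.7% and 28.3% held elsewhere, and 78 and 106 windows higher in SOX13hi and DP. A reciprocal overlap of 50% gave 13.2% and 6.32% shared, 46012 SOX13hi peaks unmet, and 33.3% and 12.5% held elsewhere. Peak centres within 200 bp gave 73.9% and 34.3% shared, and 84.0% and 35.1% held elsewhere. Joining peaks within 150 bp gave 70.2% and 31.0% shared, 11706 SOX13hi regions, 26.2% of DP regions held elsewhere, and 142 and 261 windows. Windows of 50 kb gave 266 and 289 called, and clusters in place of windows 230 and 200, so that only there were more called towards SOX13hi. The cause of these shifts was not tested. Windows of 200 kb and adding chromosomes X and Y moved no count by over 1.5 times. When peaks were joined, the scaled difference of the 19 named windows kept its sign, and 13 moved beyond the Poisson interval of the higher library.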

Other observations

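The balance of the lists differed between chromosomes. With equal numbers of peaks, the ratio of SOX13hi to DP peaks was lowest on chromosome 11 (0.756, 2555 against 3381 peaks) and highest on chromosome 3 (1.18, 3472 against 2935), with a median of 1.02 over the 19 autosomes. Chromosomes 15 (0.838) and 9 (0.864) followed chromosome 11 at the low end. Across the 19 autosomes this ratio went with fewer protein-coding genes per Mb (Pearson r = -0.50, Spearman rho = -0.55, gene numbers from the GRCm38 table), a description over chromosomes that share both libraries and their depth. The share of SOX13hi peaks that met DP varied less, from 59.9% on chromosome 3 to 67.9% on chromosome 19.

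Further long series of DP peaks without a peak of any γδ library lay at chr11:34653031-35265322 (44 DP peaks over 612 kb, 12 with equal numbers), chr6:52725780-52855296 (34 over 130 kb, 12 with equal numbers) and chr10:96084518-96109945 (29 over 25.4 kb, 9 with equal numbers). On the SOX13hi side, the series with the most peaks and no DP peak, with all peaks used, were at chr17:63206816-63644974, with 21 SOX13hi, 25 SOX13lo, 19 transgenic SOX13hi and 1 transgenic SOX13lo peaks, and at chr2:136762462-137316584, with 20, 10, 16 and 5. With equal numbers, which shorten the DP list alone, the longest SOX13hi series held 45 peaks.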
